A study of Mus musculus with 9 samples.

Results

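Quercetin, a plant flavonol, was compared with its vehicle in the hippocampus of middle-aged mice by RNA-seq. The comparison used 6 of the 9 libraries of the study, 3 labelled quercetin-treated and 3 labelled middle-aged control, and all came from C57BL/6 mice aged 10 months. Treated mice received quercetin for 24 days per the labels, and the study's methods give female mice, 1 mg/kg every other day through the tail vein and PBS with 10% DMSO as vehicle, which the control mice received in the same volume. For its behaviour tests the study states a longer course of the same dose, and the labels are followed here. The 3 remaining libraries, from young control mice aged 8 weeks that received the same vehicle, entered the fit only to help estimate the spread and are given beside the results as a reference. Nothing read here says that each library came from a single mouse, and the p-values then cover only the variation among these samples, which may be technical. Genes were taken where FPKM (fragments scaled to transcript length and to the mapped total of the library) reached 1 in at least 3 of the 6 middle-aged libraries. This held for 12922 of the 22173 genes listed, of which 18798 had values.

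Several of the genes that changed belong to well-described programmes. Secreted and membrane proteins are folded in the endoplasmic reticulum (ER) by chaperones such as BiP, encoded by Hspa5, and unfolded protein in the ER raises the transcription of these chaperones through the sensors IRE1, PERK and ATF6. Cytosolic proteins are folded by the heat shock proteins and their co-chaperones, which are induced through the heat shock factor HSF1. Glucocorticoids act on hippocampal cells through the glucocorticoid receptor, which is itself a client of HSP90, and induce a well-known group of genes. Immediate early genes are transcribed within minutes of neuronal activity and are read in the hippocampus as a trace of recent activity.

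The libraries were alike in their overall values. Between 17138 and 17307 genes had values above 0 in each of the 9 libraries, and the median-of-ratios factor ran from 0.9945 to 1.0114. The depth is unknown, because FPKM with 2 decimals does not return read counts. The labelled tissue was checked against defining markers. Prox1, a marker of dentate granule neurons, lay between 16.0 and 18.4 FPKM in the 6 libraries, and Wfs1 and Fibcd1, markers of CA1 neurons, between 28.3 and 32.8 and between 30.8 and 38.1 FPKM. Ddx3y, Kdm5d and Usp9y, genes of the Y chromosome, did not exceed 0.04 FPKM in any of the 6 libraries. Eif2s3y and Uty, also of the Y chromosome, were listed at up to 2.76 and 0.59 FPKM, and the source of these values was not tested. Xist was not analysed here. Quercetin 2 stood apart through transcripts of the choroid plexus epithelium, the tissue that makes cerebrospinal fluid. Ttr, which encodes transthyretin, measured 4.13, 28.3 and 1.08 FPKM in the control libraries and 13.5, 930 and 12.3 FPKM in the quercetin libraries. The summed FPKM of the 19 measured choroid plexus markers was 56.9 to 92.9 in the controls, 74.3 in quercetin 1, 1148 in quercetin 2 and 81.9 in quercetin 3. Among the young libraries, which enter the estimate of the spread, the sum was 55.2 and 59.6 in young 1 and 2 and 2892 in young 3. Results are therefore given with and without quercetin 2 where it moves them. Markers of meningeal fibroblasts also varied within both groups. The summed FPKM of the 16 measured markers was 553, 1038 and 413 in the controls and 423, 697 and 663 in the quercetin libraries. The part of meningeal tissue in the differences was not tested.

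Quercetin changed 22 of the 12922 tested genes, or 0.170%, at a Benjamini-Hochberg adjusted p under 0.05 in limma, a linear model that shares its estimate of the spread across genes. Of these, 18 genes (0.139% of those tested) were higher and 4 (0.0310%) were lower in the quercetin-treated group. The 4 lower genes include Rpl34-ps1, which had to differ, since only the control libraries brought it past the filter. Their log2 differences, on the log2(FPKM + 1) scale used throughout, ran from 0.25 to 0.66 among the higher genes. This scale understates the change of low genes. In all 22 genes the values of the quercetin and control libraries did not overlap. Over all tested genes, 9.0% had every quercetin library above every control library and 7.37% the reverse. The median log2 difference of all tested genes was 0.01, with quartiles of -0.05 and 0.06. A log2 difference beyond 0.5 in size was measured for 80 genes, 56 of them higher and 24 lower. At an unadjusted p under 0.05 in limma there were 1516 of the 12922 genes, 907 higher and 609 lower. These counts and the non-overlap shares above are the reference for the list counts below. The 22 called genes lay on 13 chromosomes.

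**Figure D1:**
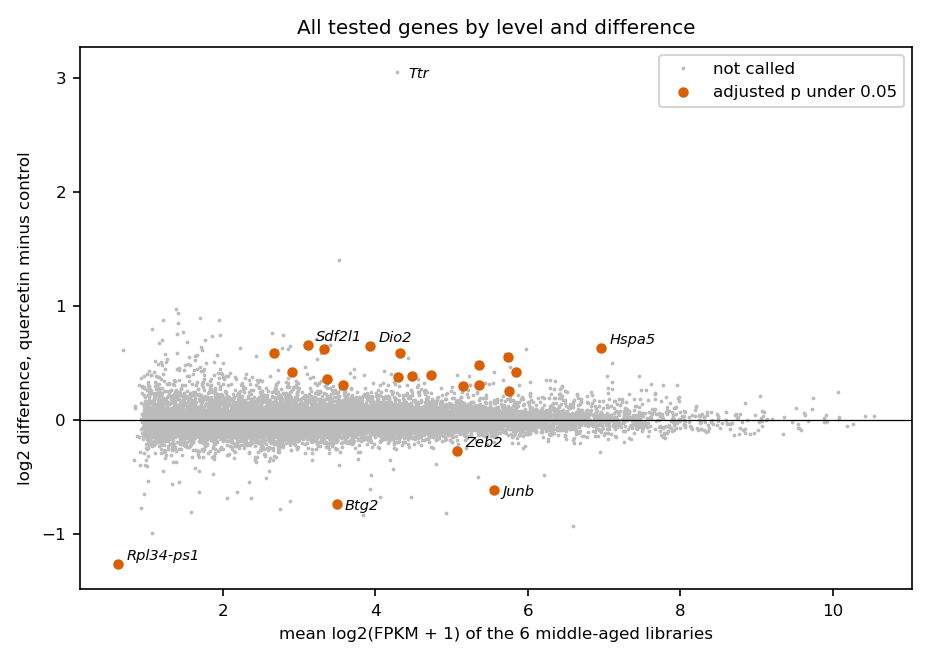
Each point is a tested gene, with the mean log2(FPKM + 1) of the 6 middle-aged libraries on the x axis and the log2 difference of quercetin minus control on the y axis. Orange points are the 22 called genes, and the named genes are examples. Ttr had the highest difference, at 3.06 on the log2 scale, and was not called (standard error 2.37). Quercetin 2 held 930 FPKM of it and the other 5 middle-aged libraries 28.3 FPKM or less.

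The number of called genes depended on single libraries. Without control 1, no gene passed in limma, with 1098 genes at an unadjusted p under 0.05. Without control 3, 9 genes passed, and without control 2, 15 genes passed, none of them lower. Without quercetin 1, 13 genes passed, without quercetin 2, 3 genes (Btg2, Dio2 and Rpl34-ps1), and without quercetin 3, 4 genes. Of the 22 genes, every gene kept its direction in each of these fits in which it was tested. This had to follow, since the quercetin and control values of the 22 genes did not overlap. Btg2 was called in 5 of 9 fits that left out a library, Dio2 in 8 and Pcsk1 and Tsc22d3 in 6 each, while Sik2 and Fkbp4 were each called in 1. The values below are given with that limit.

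The ER chaperones and folding enzymes held 4 of the 18 higher genes. Of the 29 tested genes of this list, 4 were called higher and none lower, 19 did not overlap in the higher direction against 9.0% of all tested genes, and 2 did not overlap in the lower direction. The median log2 difference was 0.15, and it was 0.12 without quercetin 2 and 0.15 without control 1. At an unadjusted p under 0.05, 17 of the 29 were higher and 1 was lower. The calls depended on single libraries: none of the ER chaperones passed in limma without control 1, control 3 or any single quercetin library, where 15 to 17 were still higher at an unadjusted p under 0.05, and 7 passed without control 2. Hspa5 (chromosome 2, 34772090 to 34776529 in GRCm38.p6), which encodes BiP, the ER chaperone of the HSP70 family, measured 90.6, 114 and 94.3 FPKM in the control libraries and 151, 169 and 144 FPKM in the quercetin libraries. Every quercetin library lay above the highest control, control 2. The difference was 0.63 on the log2 scale (standard error 0.0894, limma adjusted p = 0.0281), a ratio of means of 1.55. Sdf2l1 (chromosome 16, 17130138 to 17132383), a soluble ER protein that works with BiP and its DNAJB co-chaperones, measured 5.20, 6.73 and 5.86 FPKM in the controls and 10.8, 9.67 and 9.38 FPKM after quercetin. Its log2 difference of 0.66 was the largest of the higher called genes (standard error 0.104, limma adjusted p = 0.0398).

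Manf and Pdia6 completed the called ER genes. Manf, a secreted neurotrophic factor that is retained in the ER through BiP, measured 37.4, 51.0 and 42.3 FPKM in the controls and 63.3, 65.3 and 63.2 FPKM in the quercetin libraries. The quercetin libraries were closely grouped and the controls were spread, with control 2 the highest. The log2 difference was 0.55 (standard error 0.0854, limma adjusted p = 0.0366). Pdia6, a protein disulfide isomerase, measured 43.9, 53.2 and 49.5 FPKM in the controls and 66.0, 66.8 and 64.5 FPKM after quercetin, a log2 difference of 0.42 (standard error 0.0692, limma adjusted p = 0.0480). Below the threshold stood Pdia4 and Hyou1, an ER protein of the HSP110 family, with log2 differences of 0.55 and 0.29 and the same limma adjusted p = 0.0529. Fkbp2, an ER peptidyl-prolyl isomerase, differed by 0.36 (limma adjusted p = 0.0590). Creld2, a stress-induced ER protein, measured 5.32, 9.03 and 6.96 FPKM in the controls and 11.8, 11.0 and 10.3 FPKM after quercetin (log2 difference 0.59, limma adjusted p = 0.120). Hsp90b1, the HSP90 of the ER, and the lectin chaperone Calr differed by 0.34 and 0.32, and neither passed. Not every folding enzyme was higher. Pdia5 and Txndc5 had log2 differences of -0.01 and -0.02 with overlapping groups, and in Ero1a and Uggt2 all quercetin libraries were below the controls, with log2 differences of -0.07 and -0.14 that did not pass.

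The promoters of the called ER genes were read because ER chaperones are known to carry the ER stress response element, which ATF6 and XBP1 bind together with NF-Y. A promoter here is the window from 250 bases before to 50 after an annotated start in RefSeq (GRCm38.p6), and 10295 of the 12922 tested genes had one. The element was searched on both strands as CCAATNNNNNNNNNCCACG. It was present in 16 of these 10295 genes, or 0.155%, and in 8 of the 25 ER chaperone genes with a window, or 32%. These 8 were Calr, Canx, Creld2, Dnajc3, Ero1b, Hsp90b1, Hspa5 and Pdia6. In all 8 the quercetin libraries lay above the controls, with a median log2 difference of 0.33. Of the 17 ER chaperone genes with a window and no match, 8 were non-overlapping in the higher direction and the median was 0.08. Over all tested genes that share was 9.0%. The list was chosen with earlier results of these data known. The other genes with the element lie outside it and are not described here, so these values do not show what carriers of the element did in general. Sdf2l1, with the largest difference of the list, is one of these 17. The shorter end of the element, CCACG, which each match of the full element also holds, occurred in 52% of all genes with a window. No window was read for Manf. The stretches of the called genes Hspa5 (chr2:34771985-34772083, plus strand, match at -65 from the start) and Pdia6 (chr12:17266451-17266549, plus strand, match at -98) are shown 5′ to 3′, with the element in capitals:
Hspa5: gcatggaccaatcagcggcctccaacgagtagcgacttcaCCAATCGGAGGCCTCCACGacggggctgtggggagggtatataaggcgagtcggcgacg
Pdia6: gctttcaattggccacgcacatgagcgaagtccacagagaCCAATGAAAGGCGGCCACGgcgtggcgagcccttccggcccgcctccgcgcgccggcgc
A match describes the letters of the window and does not show that a factor bound there.

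The sensors and the other arms of the unfolded protein response held no called gene. Of the 15 tested sensors and transcription factors, 2 were higher and 1 was lower at an unadjusted p under 0.05 in limma. In 4 the groups were non-overlapping in the higher direction and in 1 in the lower, against 9.0% and 7.37% of all tested genes. The median log2 difference was 0.06. Xbp1, the transcription factor activated by IRE1, measured 26.0, 33.2 and 26.5 FPKM in the controls and 36.2, 38.3 and 39.0 FPKM after quercetin. Its groups did not overlap, and its log2 difference of 0.40 did not pass (limma adjusted p = 0.0910). Atf6, which encodes the sensor of the third arm, differed by -0.09 (limma adjusted p = 0.533). Of the 20 tested targets of the PERK and ATF4 arm, none was called in limma, 5 were higher and 0 lower at an unadjusted p under 0.05, 6 were non-overlapping in the higher direction and the median was 0.11, with 0.03 without quercetin 3, 0.06 without control 3 and 0.07 without control 1. Atf4 differed by 0.16 and Ddit3, which encodes the stress factor CHOP, by 0.21, and the groups overlapped in both. Herpud1, an ER protein that takes part in the removal of misfolded proteins, had values of 20.5, 20.6 and 19.2 FPKM in the controls and 22.4, 25.5 and 26.6 FPKM after quercetin (log2 difference 0.29, limma adjusted p = 0.107). The lists of ER-associated degradation, of the translocon and glycosylation, and of COPII and COPI transport had medians of 0.04, 0.08 and 0.04 over 25, 27 and 26 tested genes, and no member was called in limma. At an unadjusted p under 0.05 these lists held 5, 7 and 0 higher genes and no lower one. In the translocon and glycosylation list 24 of the 27 genes had a positive difference.

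**Figure D2:**
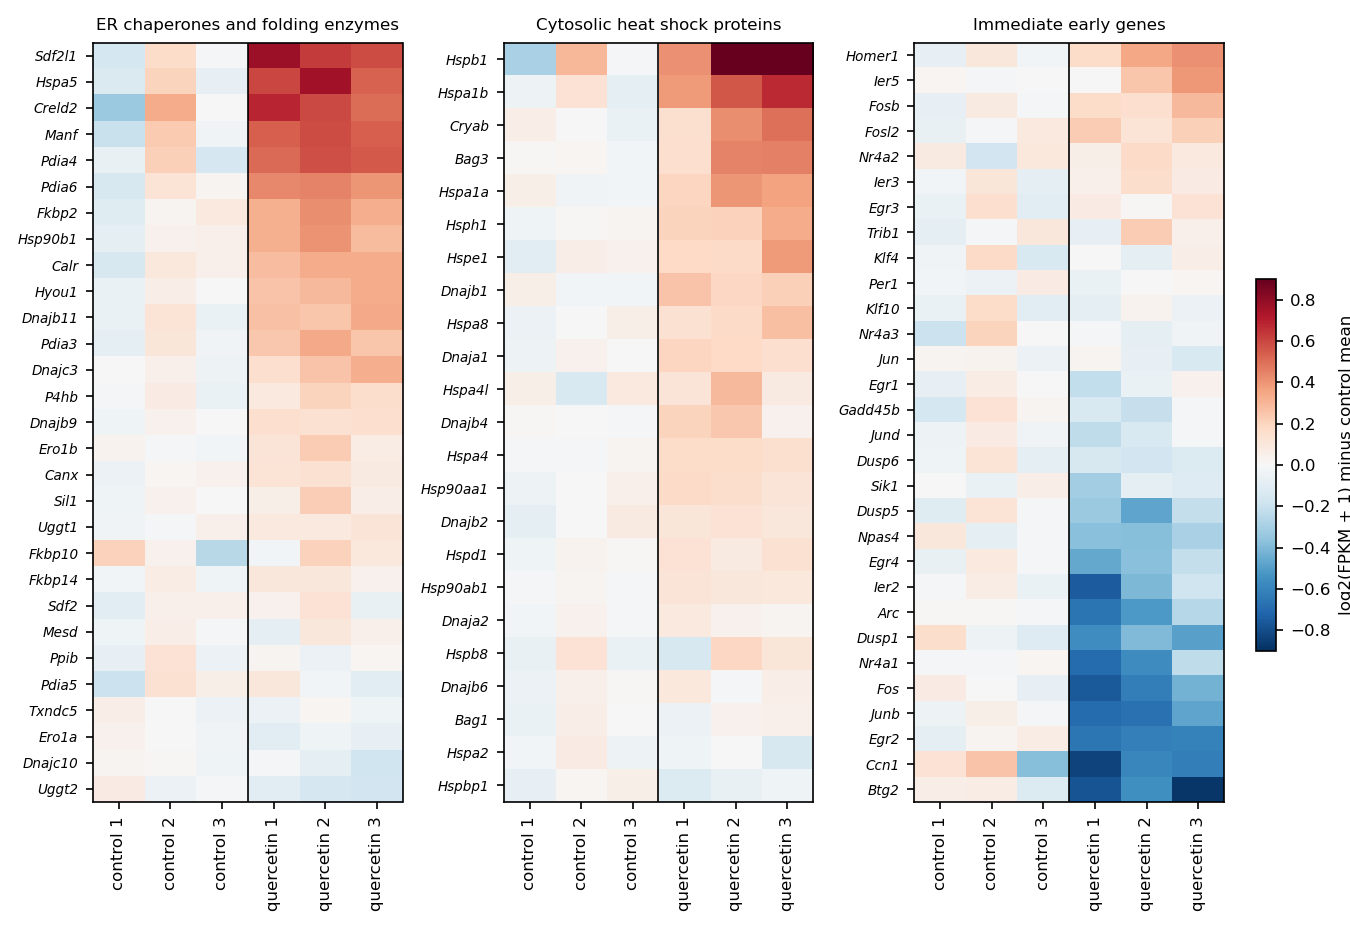
Rows are the tested genes of 3 lists and columns are the 6 middle-aged libraries, with colour for log2(FPKM + 1) minus the mean of the controls, from blue (lower) to red (higher) and clipped at the ends of the scale. The upper ER chaperones and most heat shock proteins are red in all 3 quercetin libraries, and the lower rows of the immediate early genes, from Dusp6 to Btg2, are blue in all 3.

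Cytosolic heat shock proteins were mostly higher after quercetin by small amounts, and none of the 23 tested genes was called in limma, with 17 higher and none lower at an unadjusted p under 0.05. In 16 of them all quercetin libraries lay above all controls, against 9.0% of all tested genes, and in none below. A positive difference was measured in 21. The list also holds Hspd1 and Hspe1, which encode chaperonins of the mitochondria and not of the cytosol. The median log2 difference was 0.16, with 0.14 without quercetin 2 and 0.15 without control 1. Hspa8, the constitutive HSP70 of the cytosol and the most abundant gene of the list, measured 771, 799 and 826 FPKM in the controls and 878, 900 and 964 FPKM after quercetin (log2 difference 0.19, limma adjusted p = 0.202). Hspa1b, an inducible HSP70, measured 6.55, 7.53 and 6.38 FPKM in the controls and 9.17, 10.5 and 11.4 FPKM after quercetin (log2 difference 0.54, limma adjusted p = 0.174). Hspb1, a small heat shock protein, had the largest difference of the list, 0.75, and values that ran from 3.35 to 5.55 FPKM in the controls and from 6.07 to 9.18 FPKM after quercetin (limma adjusted p = 0.112). Hsph1, a nucleotide exchange factor of HSP70, came nearest to the threshold (log2 difference 0.25, limma adjusted p = 0.0938). The 2 members with a negative difference were Hspa2 and Hspbp1, at -0.06 and -0.07, with overlapping groups.

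Among the 16 tested co-chaperones of HSP90, 2 were called higher and the median was 0.07. In 7 the groups were non-overlapping in the higher direction, against 9.0% of all tested genes. Chordc1 passed in 3 and Fkbp4 in 1 of the 9 fits that left out a library. Chordc1, which encodes the HSP90-binding protein CHP-1, measured 36.1, 35.3 and 36.1 FPKM in the controls and 44.5, 47.1 and 42.8 FPKM after quercetin. The controls agreed closely and all quercetin libraries lay above them (log2 difference 0.31, standard error 0.0447, limma adjusted p = 0.0281). Fkbp4, the immunophilin FKBP52 of steroid receptor complexes, measured 48.2, 48.0 and 48.6 FPKM in the controls and 54.6, 60.6 and 58.3 FPKM after quercetin (log2 difference 0.25, standard error 0.0407, limma adjusted p = 0.0428). Its relative Fkbp5, which glucocorticoids induce, had a difference of 0.18 that did not pass (limma adjusted p = 0.120). Ahsa2, Stip1 and St13, further partners of the HSP70 and HSP90 cycle, differed by 0.31, 0.23 and 0.19, and none passed. The list of the cytosolic chaperonin, which folds actin and tubulin, had a median of 0.09 over 14 tested genes, 0.05 without quercetin 2, with none called. This list also holds prefoldin genes, such as Pfdn1 and Pfdn4, with its largest and its lowest difference, 0.27 and -0.11.

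The heat shock element was searched as GAANNTTCNNGAA on both strands and was present in 56 of the 10295 genes with a promoter window, or 0.544%. In the list of cytosolic heat shock proteins, 4 of 19 genes with a window held it, Dnajb6, Hspd1, Hspe1 and Hsph1. The windows of Hspd1 and Hspe1 overlap on opposite strands and hold the same matches, so this stretch is counted for both genes. The median log2 difference was 0.18 in the 4 genes with a match and 0.16 in the 15 with a window and no match. Of the called genes, Chordc1 alone held it, in 3 overlapping matches that begin at -4 and run past the annotated start. They are shown in capitals in the stretch chr9:18292223-18292285 (GRCm38.p6, plus strand, RefSeq):
Chordc1: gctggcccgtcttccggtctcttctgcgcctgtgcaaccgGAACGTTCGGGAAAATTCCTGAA

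Glucocorticoid-induced genes held 3 further higher genes. Of the 21 tested, 3 were called higher and none lower, and 19 had a positive difference. In 10 the groups were non-overlapping in the higher direction and in 1 in the lower, against 9.0% and 7.37% of all tested genes. The median log2 difference was 0.17, and it ranged from 0.13, without control 1, to 0.22, without quercetin 1, as single libraries were left out. None of the 21 passed in limma without control 1, quercetin 2 or quercetin 3, where 8, 9 and 7 were higher at an unadjusted p under 0.05. Fkbp5 stands in this list and among the co-chaperones, and Dusp1 and Per1 also stand among the immediate early genes. Tsc22d3, which encodes the glucocorticoid-induced leucine zipper GILZ, measured 33.3, 32.6 and 35.6 FPKM in the controls and 45.1, 48.8 and 49.7 FPKM after quercetin. The gap between the groups was wider than the range of either (log2 difference 0.49, standard error 0.0604, limma adjusted p = 0.0204). Zbtb16, the zinc finger protein PLZF, measured 15.0, 13.7 and 17.5 FPKM in the controls and 23.6, 22.7 and 24.6 FPKM after quercetin (log2 difference 0.59, standard error 0.0757, limma adjusted p = 0.0204). Cdkn1a, the cyclin-dependent kinase inhibitor p21, measured 3.57, 5.03 and 4.04 FPKM in the controls and 6.34, 6.83 and 7.26 FPKM after quercetin (log2 difference 0.59, standard error 0.0967, limma adjusted p = 0.0480). Plin4, a lipid droplet protein, had the largest difference of the list at 0.85, with 0.90, 0.75 and 1.38 FPKM against 2.03, 2.84 and 3.00 FPKM, and did not pass (limma adjusted p = 0.0784). Only control 3 reached 1 FPKM among its controls, so Plin4 passed the filter through the quercetin libraries. Its difference is not read as a result, although it is counted in the list values. Sgk1, a glucocorticoid-induced kinase, and the metallothionein Mt1 were non-overlapping, with differences of 0.31 and 0.28 and no call. Per1, Nfkbia and Errfi1, also glucocorticoid targets, differed by -0.01, 0.03 and 0.01. Dusp1, which is at once a glucocorticoid target and an immediate early gene, lay in the opposite direction, at 19.3, 16.7 and 15.8 FPKM in the controls and 11.3, 12.8 and 11.98 FPKM after quercetin (log2 difference -0.48, limma adjusted p = 0.112). The glucocorticoid response element, searched as GNACANNNTGTNC, matched in Map3k6, Mt1 and Sgk1 of the 18 list members with a window and in 0.418% of all genes with one.

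**Figure D3:**
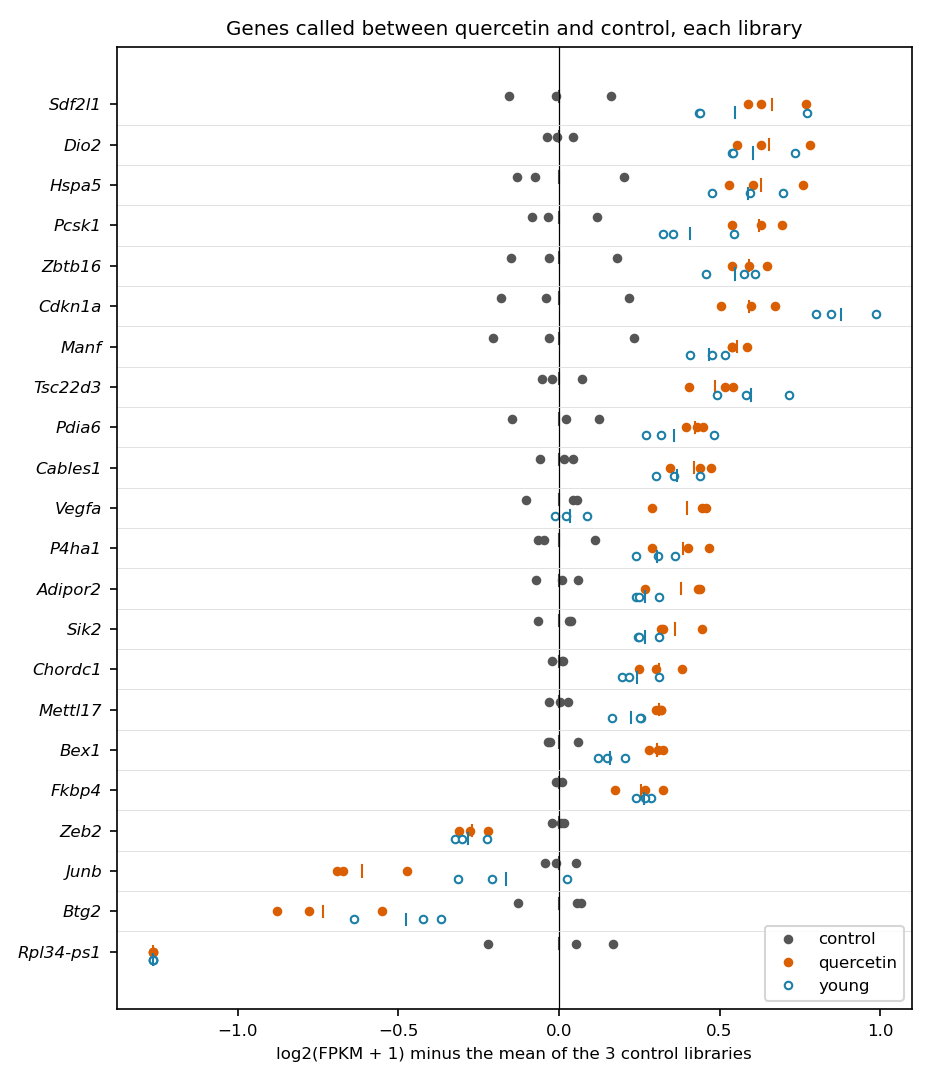
Each row is a called gene and each point is a library, placed at its log2(FPKM + 1) minus the mean of the 3 controls, with short bars for the group means. In all 22 rows the orange quercetin points lie apart from the grey control points. The open blue points are the young libraries.

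Immediate early genes were lower after quercetin in part of the list. Of the 30 tested, 2 were called lower and none higher. In 14 the groups were non-overlapping in the lower direction, against 7.37% of all tested genes, and in 3 in the higher direction, against 9.0%. The median log2 difference was -0.12, with a range of -0.17, without quercetin 3, to -0.07, without control 2, as single libraries were left out. No gene of the list passed as lower in limma without control 1, control 2 or quercetin 1, where 12 or 13 were lower at an unadjusted p under 0.05. Btg2 (chromosome 1), an antiproliferative gene induced by neuronal activity, measured 14.1, 14.2 and 12.3 FPKM in the controls and 7.47, 8.92 and 6.90 FPKM after quercetin. The groups were far apart relative to their ranges, and the ratio of means was 0.573 (log2 difference -0.74, standard error 0.0959, limma adjusted p = 0.0204). Junb, a subunit of the AP-1 transcription factor, measured 55.7, 59.6 and 57.0 FPKM in the controls and 35.2, 35.7 and 41.1 FPKM after quercetin (log2 difference -0.61, standard error 0.0816, limma adjusted p = 0.0216).

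Other members lay in the same direction without passing. Egr2, a zinc finger transcription factor, measured 4.34, 4.78 and 4.95 FPKM in the controls and 2.63, 2.71 and 2.72 FPKM after quercetin, and missed the threshold narrowly (log2 difference -0.62, limma adjusted p = 0.0529). Fos, the AP-1 subunit most used as a marker of active neurons, measured 18.7, 17.8 and 16.8 FPKM in the controls and 10.1, 11.2 and 13.0 FPKM after quercetin (log2 difference -0.60, limma adjusted p = 0.0971). Arc, which regulates AMPA receptors at synapses, was even in the controls at 86.7, 86.9 and 85.2 FPKM and varied after quercetin at 54.4, 59.9 and 72.2 FPKM (log2 difference -0.48, limma adjusted p = 0.129). Nr4a1, an orphan nuclear receptor, had the same pattern, with 47.1, 47.1 and 48.1 FPKM against 28.9, 31.7 and 40.3 FPKM (log2 difference -0.50, limma adjusted p = 0.103). Quercetin 3 was the highest of the 3 quercetin libraries in Fos, Arc, Nr4a1, Junb, Egr4 and Ier2, and the lowest in Btg2. Npas4, an activity-dependent transcription factor of neurons, had a difference of -0.35 (limma adjusted p = 0.0977).

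The list was mixed. Egr1, Jun, Nr4a3 and Klf10 had differences of -0.08, -0.06, -0.04 and -0.04 with overlapping groups. Homer1, a scaffold protein of the synapse, Fosb and Fosl2 were non-overlapping in the higher direction, with differences of 0.31, 0.20 and 0.19 that did not pass. These 3 of the 30 genes are near the 9.0% of all tested genes with such values. Bdnf, an activity-regulated neurotrophin, differed by 0.12 (limma adjusted p = 0.474). The list of neurotrophins and synaptic plasticity had a median of -0.02 over 24 tested genes with none called. In 5 of these 24 the groups were non-overlapping in the lower direction and in 3 in the higher, against 7.37% and 9.0% of all tested genes. At an unadjusted p under 0.05 in limma, 1 was higher and 2 were lower. The scores of the immediate early genes, each the mean over the list of log2(FPKM + 1) minus the control mean, were -0.02, 0.05 and -0.03 in the controls and -0.27, -0.19 and -0.12 after quercetin. The groups did not overlap on this score, and quercetin 3 was the nearest to the controls.

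Dio2 and Pcsk1 were the other higher genes with large differences. Dio2 (chromosome 12, 90724552 to 90739038), the deiodinase that converts thyroxine to active thyroid hormone and that is made in astrocytes in the brain, measured 11.1, 10.8 and 11.5 FPKM in the controls and 16.8, 17.8 and 19.9 FPKM after quercetin. The gap was several times the range of the controls (log2 difference 0.65, standard error 0.0686, limma adjusted p = 0.00870). Dio2 was the one call among 14 tested genes of the thyroid hormone list, which had a median of 0.02. Of these genes 4 were non-overlapping in the higher direction, against 9.0% of all tested genes. At an unadjusted p under 0.05 in limma 3 were higher. Ttr, described above, is also in this list. Its receptor genes Thra and Thrb differed by -0.08 and 0.02. Slco1c1, a thyroxine transporter of brain vessels and choroid plexus, measured 13.97, 14.18 and 13.91 FPKM in the controls and 15.87, 20.12 and 16.94 FPKM after quercetin, without overlap and highest in quercetin 2 (log2 difference 0.31, limma adjusted p = 0.309). Pcsk1 (chromosome 13, 75089420 to 75134861), the prohormone convertase PC1/3, measured 6.88, 6.61 and 7.76 FPKM in the controls and 10.7, 12.1 and 11.5 FPKM after quercetin (log2 difference 0.62, standard error 0.0754, limma adjusted p = 0.0204).

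Genes that work with Pcsk1 in dense-core vesicles were measured beside it. Pcsk2, the second convertase of neurons, differed by -0.05 and Cpe, the carboxypeptidase that follows them, by -0.05, and both were non-overlapping in the lower direction. The granin genes Scg2 and Vgf were non-overlapping in the higher direction, with differences of 0.19 and 0.14 and no call. Of 15 tested neuropeptide precursors none was called, and the median was 0.14. In 5 the groups were non-overlapping in the higher direction, against 9.0% of all tested genes, and in none in the lower. Tac1, the precursor of substance P, measured 7.97, 7.22 and 7.79 FPKM in the controls and 10.3, 9.20 and 10.5 FPKM after quercetin (log2 difference 0.34, limma adjusted p = 0.0590). Adcyap1, Crh, Pnoc and Penk differed by 0.45, 0.38, 0.34 and 0.33, all non-overlapping and none called. For Crh only control 3 reached 1 FPKM among the controls, so it passed the filter through the quercetin libraries and its difference is not read as a result. Sst, Npy and Cck, the most abundant precursors, differed by 0.08, 0.05 and 0.02.

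The cyclic AMP response element, searched as TGACGTCA, was present in 366 of 10295 genes with a window, or 3.56%. Among the called genes it occurred in Dio2, Pcsk1 and Btg2, so in genes of either direction. It is shown in capitals for Dio2 (chr12:90739086-90739173, minus strand, at -95 from the start), Pcsk1 (chr13:75089739-75089826, plus strand, at -78) and Btg2 (chr1:134079274-134079361, minus strand, at -166), in GRCm38.p6 from RefSeq and 5′ to 3′ along the gene:
Dio2: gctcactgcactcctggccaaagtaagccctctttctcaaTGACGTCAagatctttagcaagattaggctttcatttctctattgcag
Pcsk1: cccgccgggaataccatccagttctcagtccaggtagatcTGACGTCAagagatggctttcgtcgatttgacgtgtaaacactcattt
Btg2: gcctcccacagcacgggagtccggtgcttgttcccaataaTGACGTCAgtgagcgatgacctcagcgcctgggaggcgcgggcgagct
Of the other immediate early genes with a window, Dusp1 also held this element. The serum response element, searched as the CArG box, was matched in Dusp5 and Egr2 among the 23 immediate early genes with a window. It was matched in 1.63% of all genes with a window. No window was read for 7 immediate early genes, Arc, Egr1, Egr3, Ier2, Klf10, Sik1 and Trib1, so neither element was searched in them.

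Of the remaining called genes, only Cables1 stood in a list, that of senescence and cell cycle inhibitors described below. Vegfa, the main growth factor of blood vessels, measured 23.15, 20.66 and 22.96 FPKM in the controls and 27.4, 30.6 and 30.9 FPKM after quercetin (log2 difference 0.40, standard error 0.0581, limma adjusted p = 0.0281). P4ha1, a collagen prolyl hydroxylase subunit of the ER, measured 17.6, 20.1 and 17.9 FPKM in the controls and 22.8, 24.7 and 25.9 FPKM after quercetin (log2 difference 0.39, standard error 0.0612, limma adjusted p = 0.0422). Quercetin 1 was the lowest of the treated libraries in both genes. Adipor2, an adiponectin receptor, measured 17.0, 15.4 and 16.4 FPKM in the controls and 19.8, 22.3 and 22.4 FPKM after quercetin (log2 difference 0.38, standard error 0.0552, limma adjusted p = 0.0281). Sik2, a salt-inducible kinase that restrains CREB coactivators, measured 8.33, 7.69 and 8.29 FPKM in the controls and 10.4, 11.4 and 10.3 FPKM after quercetin (log2 difference 0.36, standard error 0.0544, limma adjusted p = 0.0308).

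Mettl17, Bex1, Cables1 and Zeb2 had standard errors between 0.0398 and 0.0601. Mettl17, a methyltransferase-like protein of mitochondrial translation, measured 9.45, 9.70 and 9.90 FPKM in the controls and 12.3, 12.2 and 12.3 FPKM after quercetin (log2 difference 0.31, standard error 0.0450, limma adjusted p = 0.0281). Bex1, a brain-expressed X-linked gene, measured 30.3, 32.4 and 30.4 FPKM in the controls and 38.6, 39.1 and 37.9 FPKM after quercetin (log2 difference 0.30, standard error 0.0398, limma adjusted p = 0.0204). Cables1, which binds cyclin-dependent kinases, measured 5.70, 5.24 and 5.57 FPKM in the controls and 8.03, 7.82 and 7.26 FPKM after quercetin (log2 difference 0.42, standard error 0.0601, limma adjusted p = 0.0281). Zeb2, a zinc finger repressor, was lower, with 35.5, 36.4 and 36.2 FPKM in the controls and 28.8, 29.6 and 30.8 FPKM after quercetin (log2 difference -0.27, standard error 0.0403, limma adjusted p = 0.0308). In these 4 genes the distance between the groups exceeded the range within each.

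Rpl34-ps1 (chromosome 6, 71124589 to 71125001), annotated as a pseudogene of the ribosomal protein gene Rpl34, was listed at 1.70, 1.06 and 1.49 FPKM in the controls and at 0 in all 3 quercetin libraries and all 3 young libraries. It passed the filter only through the controls, where it is high, so its call is counted among the 22 but is not read as a result, and no fold change is given against a group at 0. Its reads can be shared with Rpl34, so the value is uncertain. Rpl34 itself measured 68.0, 87.7 and 90.2 FPKM in the controls and 90.1, 97.4 and 105 FPKM after quercetin and was not called (log2 difference 0.26, limma adjusted p = 0.324). The 51 tested cytosolic ribosomal protein genes had a median log2 difference of 0.11, of which 46 were positive and none called in limma, with 14 higher at an unadjusted p under 0.05. Without control 1, whose score on this list was the lowest of all 9 libraries at -0.13, the median was 0.04. Pisd, the mitochondrial phosphatidylserine decarboxylase, lay among the uncalled genes with the smallest p, at 101, 130 and 172 FPKM in the controls and 58.1, 73.8 and 75.5 FPKM after quercetin (log2 difference -0.93, limma adjusted p = 0.0529). Lsm5, Sgsm1 and Nop16 completed the 10 uncalled genes nearest to the threshold, with differences of 0.63, 0.24 and 0.34.

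**Figure D4:**
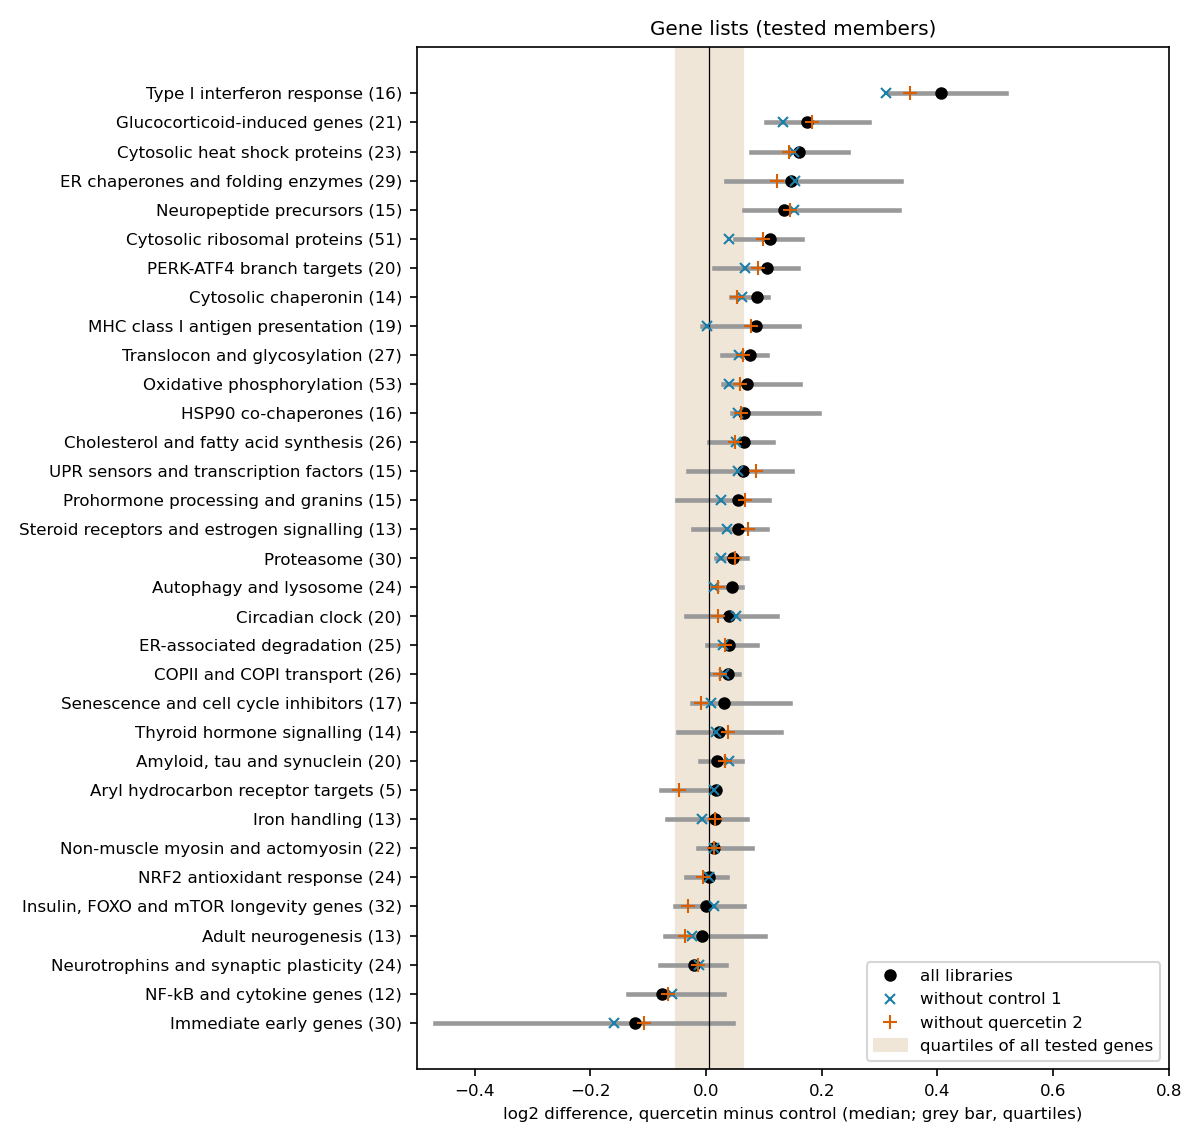
Black points are the median log2 difference of each list, grey bars its quartiles, and the shaded band the quartiles of all tested genes, with the number of tested members in parentheses. Blue crosses and orange plus signs give the median without control 1 and without quercetin 2. The interferon list stands at 0.41 and the immediate early genes at -0.12.

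The type I interferon response list had the highest median of the pathway lists. All 16 tested genes had a positive difference and the median was 0.41, but none was called in limma, with 9 higher at an unadjusted p under 0.05. In 9 the groups were non-overlapping in the higher direction, against 9.0% of all tested genes. The list scores were -0.18, 0.09 and 0.09 in the controls and 0.19, 0.50 and 0.65 after quercetin. Quercetin 1 stood close to the controls and quercetin 3 was the highest. Irf7, the transcription factor that amplifies the response, measured 0.83, 0.87 and 1.11 FPKM in the controls and 1.81, 2.88 and 3.67 FPKM after quercetin (log2 difference 0.94, limma adjusted p = 0.181). Ifit3, an interferon-induced antiviral protein, ranged from 2.41 to 5.64 FPKM in the controls and from 4.89 to 11.0 FPKM after quercetin, and the groups overlapped. Trim30a passed the filter only through the quercetin libraries. For Irf7 only control 3 reached 1 FPKM among the controls, so Irf7 also passed through the quercetin libraries. The differences of these genes are not read as results, although both genes are counted in the list values above. Most genes of this list were low, and 7 of the 23 measured did not pass the filter. The young libraries scored 0.06, 0.49 and -0.09, so young 2 stood apart within that vehicle group as well. The list of MHC class I antigen presentation had a median of 0.09 over 19 tested genes, and 0.00 without control 1 or without quercetin 3. The list of NF-kB and cytokine genes had a median of -0.08 over 12 tested genes, with -0.14 without control 3 and -0.03 without control 2, and neither list held a call.

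Several programmes that are often studied with quercetin or with ageing showed small differences in these libraries. The 24 tested antioxidant genes of the NRF2 response had a median of 0.01 with none called. Hmox1 and Nqo1, classical NRF2 targets, differed by -0.03 (95% interval -0.30 to 0.24) and 0.02 (-0.25 to 0.29). Nfe2l2, the gene of NRF2, differed by 0.18 (limma adjusted p = 0.363). The 5 tested targets of the aryl hydrocarbon receptor had a median of 0.02. The insulin, FOXO and mTOR list had a median of 0.00 over 32 genes and the autophagy and lysosome list 0.04 over 24, with no calls. With single libraries left out these medians ran from -0.02 to 0.02 for NRF2, -0.03 to 0.01 for insulin, FOXO and mTOR and 0.01 to 0.07 for autophagy, and that of the aryl hydrocarbon receptor was -0.10 without control 3. Oxidative phosphorylation had a median of 0.07 over 53 genes, and 0.04 without control 1. Of these genes 13 were non-overlapping in the higher direction, against 9.0% of all tested genes. In the list of senescence and cell cycle inhibitors, Cdkn1a and Cables1 were the 2 called genes of 17 tested and the median was 0.03, between -0.01 without quercetin 2 and 0.08 without control 2. Cdkn2a, which encodes p16, was not tested, with 0.14 FPKM as its highest value in the 6 libraries. Myh9, which encodes the heavy chain of non-muscle myosin IIA, a protein of interest in the study, measured 18.5, 21.0 and 19.5 FPKM in the controls and 20.4, 21.1 and 23.3 FPKM after quercetin. The groups overlapped and the difference of 0.13 did not pass (limma adjusted p = 0.426).

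Cell type markers were compared because a change in the cells of a sample changes bulk values. In bulk tissue, fewer cells of a type and less RNA per cell cannot be told apart. None of the 16 NK cell markers reached the filter, and Ncr1, Klrb1c and Prf1 did not exceed 0.08 FPKM in any of the 6 libraries, so NK cells were not measurable at this level. Among T and B cell markers Cd79a alone was tested, with a difference of 0.24 and no call. Dentate granule neuron markers had a median of -0.09 over 14 genes, 4 of them non-overlapping in the lower direction, against 7.37% of all tested genes. Markers of CA1 neurons, of CA2 and CA3 neurons and of interneurons had medians of -0.04, -0.07 and 0.07. Single libraries moved these: the CA2 and CA3 median was 0.01 without control 2 and -0.13 without control 3, that of interneurons 0.02 without quercetin 2 and 0.10 without quercetin 3, that of CA1 -0.09 without control 2 and -0.02 without quercetin 3, and that of the dentate -0.05 without control 2. Those of astrocytes, microglia, oligodendrocytes and endothelial cells had medians of 0.02, -0.0016, 0.06 and -0.08, and each changed sign when single libraries were left out, with ranges of -0.02 to 0.02, -0.03 to 0.05, -0.01 to 0.14 and -0.14 to 0.02. No marker of these cell types was called in limma, and at an unadjusted p under 0.05 the dentate list held 4 lower genes.

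Markers of cells at the ventricle differed more. Of 9 tested markers of the ependyma, the ciliated lining of the ventricles, all had a positive difference and the median was 0.41. In 6 the groups were non-overlapping in the higher direction, against 9.0% of all tested genes. None was called in limma, with 4 higher at an unadjusted p under 0.05. Foxj1, the transcription factor of motile cilia, measured 2.76, 2.46 and 1.85 FPKM in the controls and 3.08, 4.64 and 2.80 FPKM after quercetin. Dynlrb2, a ciliary dynein light chain, was low in the controls at 0.59, 0.73 and 0.47 FPKM and measured 1.64, 1.90 and 1.80 FPKM after quercetin. It passed the filter only through the quercetin libraries, so its difference is not read as a result. Mia, another marker of the list, reached 1 FPKM only in control 2 among the controls and also passed through the quercetin libraries. Both are counted in the list values. Quercetin 2, the library high in choroid plexus markers, was also the highest in ependymal score at 0.70, against 0.29 and 0.38 in quercetin 1 and 3, and without it the median was 0.27. The choroid plexus median itself was 0.57 over 6 tested markers and 0.06 without quercetin 2. Of the globin genes Hba-a1, Hba-a2, Hbb-bs and Hbb-bt, all 4 had their lowest value of the 6 libraries in quercetin 2, and the red blood cell list changed from a median of -0.67 to -0.15 without it. With the choroid plexus score as a covariate in the fit, 11 genes passed, and all were among the 22: Bex1, Btg2, Chordc1, Dio2, Hspa5, Junb, Mettl17, Pcsk1, Rpl34-ps1, Tsc22d3 and Zbtb16. The part of ventricular tissue in the other differences was not tested.

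**Figure D5:**
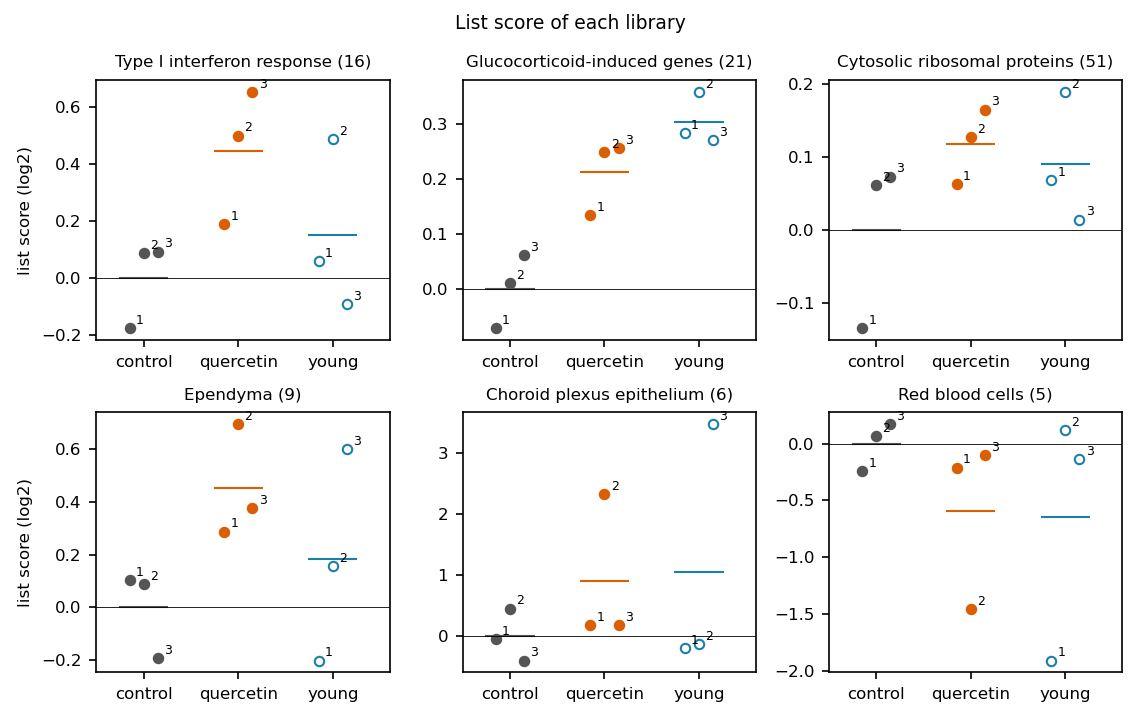
Points are libraries, numbered by replicate, and the y axis is the list score, the mean over the tested genes of log2(FPKM + 1) minus the control mean, with short lines for group means and a separate scale in each panel. Quercetin 2 stands alone among the treated libraries for the choroid plexus (2.33) and red blood cells (-1.46), while for glucocorticoid-induced genes all 3 quercetin libraries lie above the 3 controls.

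The young libraries give a second reference for the called genes, with the caution that each pair of comparisons shares a group of libraries. These genes were picked because the same controls differed from the quercetin libraries, which favours a difference of the controls from young as well. The adjusted p for control minus young are therefore not separate evidence. For Hspa5 the young libraries measured 150, 139 and 161 FPKM, a difference of 0.04 for quercetin minus young (limma adjusted p = 0.964) and of -0.59 for control minus young (limma adjusted p = 0.0252). For Tsc22d3 they measured 56.2, 51.2 and 48.0 FPKM, with -0.11 for quercetin minus young (limma adjusted p = 0.816) and -0.60 for control minus young (limma adjusted p = 0.00212). Dio2 had a difference of 0.05 for quercetin minus young (limma adjusted p = 0.933) and -0.60 for control minus young (limma adjusted p = 0.00415). In these genes the young values lay near those of the quercetin libraries. Cdkn1a measured 8.02, 8.31 and 9.26 FPKM in the young libraries, all above the quercetin libraries. Its difference was -0.29 for quercetin minus young (limma adjusted p = 0.654) and -0.88 for control minus young (limma adjusted p = 0.00352).

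Other called genes stood elsewhere relative to the young libraries. Vegfa measured 22.1, 23.7 and 22.6 FPKM there, within or near the range of the controls, with a difference of -0.03 for control minus young (limma adjusted p = 0.866) and 0.36 for quercetin minus young (limma adjusted p = 0.0749). Junb measured 58.4, 49.6 and 46.0 FPKM in the young libraries, all above the quercetin libraries, with differences of 0.17 for control minus young (limma adjusted p = 0.447) and -0.45 for quercetin minus young (limma adjusted p = 0.128). For Egr2 the same differences were 0.09 and -0.53, with adjusted p of 0.782 and 0.166 in limma. Bex1 measured 34.5, 35.9 and 33.8 FPKM in the young libraries, between the ranges of the control and quercetin libraries. A p that misses the threshold here does not show that groups were equal.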

How the data were processed

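Hippocampal RNA-seq was taken from 3 quercetin-treated and 3 control libraries of middle-aged mice, and 3 young control libraries shared the fit. For each of 22173 genes the deposited unit is FPKM, which the authors computed from BGISEQ reads and rounded to 2 decimals. GEO's notes list TopHat2, Cufflinks and GRCm38, whereas HISAT2, Bowtie2 and RESM stand in the study's methods, and the step that made the values is therefore unknown. FPKM carries no depth, so neither a count model nor a counting interval was used.

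Of these genes, 12922 reached 1 FPKM in 3 or more of the 6 middle-aged libraries. Their log2(FPKM + 1) was fitted over all 9 libraries with limma 3.58.1 in R 4.3.3, with empirical Bayes moderation that followed the mean-variance trend, and p-values were adjusted by Benjamini-Hochberg over all 12922 genes (threshold 0.05). Members and lists were chosen with earlier results of these data known, so lists are described by counts and medians beside all tested genes, with no list test. Named genes are the called genes, the 10 uncalled genes with the smallest p, the called members and the largest differences of each list, and a set of stress, activity, redox and marker genes. Other genes, such as list members with small differences, were chosen after their values were seen. Gene positions and promoters come from RefSeq tables of GRCm38.p6. Alternatives were a pseudocount of 0.1, other filters, scalings and limma settings, a threshold of 0.1, a replicate block, a choroid plexus covariate and leaving libraries out. Plots were made in Python 3.11.15 with matplotlib 3.10.9.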

Additional observations from a re-analysis of the deposited data

How the results depend on the processing

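The 22 called genes kept their direction in every alternative in which they were tested, and no named difference that was called reversed. In fits that left out libraries or changed the filter, pseudocount or threshold this had to follow, since the groups did not overlap in these genes. The number of calls moved. The count of called genes (higher and lower) was 1 (0 and 1) with no filter on low values, 34 (28 and 6) with a mean of at least 5 FPKM, 2 (1 and 1) with no mean-variance trend, 11 (8 and 3) with the choroid plexus covariate, 2 (0 and 2) with both libraries high in choroid plexus transcripts left out, and 55 (43 and 12) at an adjusted p under 0.1. The fit of the 6 middle-aged libraries gave 15 calls, 10 of them higher, and quantile normalization 28, 8 of them lower. With single libraries left out the count ran from 0 to 29, with 0 to 22 higher and 0 to 7 lower. The lowest came without control 1 and the highest without young 3. Other counts were 23 with a pseudocount of 0.1, 26 with median-of-ratios scaling and 27 with robust empirical Bayes, and all 22 genes were called in these 3 fits. The causes of these moves were not tested.

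Replicate numbers are shared between the groups, and the correlations of deviations for numbers 1, 2 and 3 were 0.0696, 0.0829 and -0.0215, so the numbers were not read as pairs. With a replicate block 13 genes were called, 10 higher and 3 lower, and 7 of the 22 were among them. The depth of the libraries is unknown, so the counting error of low genes, such as many of the interferon list, cannot be given. These genes are also limited by 3 libraries a group.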

Other observations

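Further gene groups held no call in limma and are given as values. Of 20 tested circadian clock genes, 5 were higher and 1 was lower at an unadjusted p under 0.05, and the median log2 difference was 0.04, with 0.01 without control 2. Per2, a repressor of the clock, had the largest difference, with 9.89, 9.81 and 10.2 FPKM in the controls and 12.1, 13.9 and 15.0 FPKM after quercetin (log2 difference 0.42, limma adjusted p = 0.103). The groups did not overlap in Per2, while those of its relative Per1 did. Cry1, its partner, differed by 0.27 without overlap. Of 26 tested genes of cholesterol and fatty acid synthesis, 9 were higher and none was lower at an unadjusted p under 0.05, with a median of 0.07. Sqle, the squalene epoxidase, differed by 0.15 and Elovl6, a fatty acid elongase, by 0.18, without overlap. The proteasome had a median of 0.05 over 30 genes, 0.03 without control 1, and adult neurogenesis, amyloid, tau and synuclein, iron handling and actomyosin had medians of -0.0063, 0.02, 0.02 and 0.01 over 13, 20, 13 and 22 genes, all within -0.04 to 0.06 with single libraries left out. Nr3c1, the glucocorticoid receptor gene, measured 19.59, 18.19 and 19.03 FPKM in the controls and 16.00, 18.01 and 16.43 FPKM after quercetin (log2 difference -0.16, limma adjusted p = 0.302).

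Markers of neighbouring brain regions varied between libraries. Slc17a6, a glutamate transporter of thalamic neurons, measured 6.44, 3.35 and 5.32 FPKM in the controls and 7.02, 8.47 and 9.37 FPKM after quercetin (log2 difference 0.65, limma adjusted p = 0.189). Zic1 reached 9.67 FPKM in quercetin 2, and its values in the other quercetin and control libraries ran from 1.22 to 3.00 FPKM. The lists of thalamus and habenula, cortex and striatum had medians of 0.07, 0.14 and 0.07 over 13, 13 and 11 tested genes, with 12, 10 and 9 positive. The cortex median was 0.04 without quercetin 3 and 0.05 without control 2, the striatum median 0.04 without quercetin 2 and 0.15 without control 3, and the thalamus median 0.12 without control 1 or quercetin 3. The striatal list shares Tac1 and Penk with the neuropeptide precursors. The part of neighbouring tissue in the other differences was not tested.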
